A study of Arabidopsis thaliana with 12 samples.

Results

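The comparison described here is that of mRNA in *Arabidopsis thaliana* shoots grown with low boron against shoots grown with a standard boron supply. It uses 4 of the 12 samples of the series, chosen by their labels alone: 2 RNA-seq libraries from the low-boron group (Bminus, 0.3 µM boric acid) and 2 from the control group (Ctrl, 30 µM boric acid), over all 27655 genes of the deposited table. All plants were wild type of the accession Col-0, and every group shared the same MGRL nutrient medium with sucrose and a day of 16 h light and 8 h dark. Whole shoots were taken at 14 days of age, and each replicate pooled about 300 plants. The remaining 8 samples are the RNA-seq libraries of a high-boron group (Bplus, 500 µM boric acid) and ribosome footprint libraries of the same 3 supplies. They are used only where they bear on the low-boron genes.

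Boron is an essential plant nutrient that is taken up as boric acid. In the cell wall, borate joins pairs of rhamnogalacturonan II chains, a side-branched pectin, and most of the boron of a plant deprived of it is found there. When supply is low, roots and shoots move boric acid through channels of the NIP family and export it as borate through BOR transporters. Boron deficiency stops the expansion of young tissue early, before older leaves show symptoms.

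The 4 libraries held 8908016 and 8450732 counts (low boron) and 9091475 and 8781846 counts (control). Replicate libraries correlated across genes at r = 0.9905 for low boron and 0.9858 for control on the log CPM scale (CPM are counts scaled to the size of the library), and genes are not independent replicates. For genes of mean log2 CPM of at least 5, the SD of the log2 difference between the 2 low-boron libraries was 0.117, that between the 2 control libraries 0.191, and that between the group means 0.487. Markers of root (1 of 9 tested), flower (2 of 5) and seed (0 of 3) mostly failed the filter on low counts, while all 4 mesophyll markers passed it. The 4 summed to 11790 to 11990 CPM at low boron, against 14550 to 15840 CPM in control. Most of that sum was RBCS1A, with 8347 and 8662 CPM at low boron and 11706 and 10770 CPM in control. The labels do not say that replicates came from separate cultures, so p-values measure the spread between these samples only. The labels give no batch or date. Some list members, MYC2, BSMT1, PGLP1 and BOR4 among them, were listed at 0 counts in each of the 4 libraries and could not be tested. How reads of near-identical genes were assigned is not given in the sources used here. Values of close copies, such as the RBCS, CAB and polyubiquitin genes, are uncertain for that reason.

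The mRNA of a large share of the genes differed between low boron and control. Of 18403 genes tested, 6120 were called at an adjusted p under 0.05 (33.3%, edgeR quasi-likelihood test with Benjamini-Hochberg adjustment), 3582 higher (19.5%) and 2538 lower (13.8%) at low boron. Large changes were mostly rises: 995 called genes were at least 2-fold higher (5.41%) and 255 at least 2-fold lower (1.39%), and 59 rose over 8-fold against 3 that fell as far. In all 6120 called genes, both low-boron libraries lay outside the range of the control libraries. The calls rest on the same values, so this is not separate evidence for them. The median log2 fold change of all genes tested was 0.02. Falls outnumbered rises only among the most abundant mRNAs: of 831 called genes with a mean log2 CPM over 7, 345 rose and 486 fell. Between 5 and 7, 1475 rose and 1028 fell, and at or under 1, 118 rose and 34 fell. In sum the called rises added 105214 CPM and the called falls summed to -111068 CPM. DESeq2 called 3938 genes, and edgeR called 4035 without low-boron library 2 and 3731 without low-boron library 3. In RNA from whole shoots, fewer cells of a type and less RNA per cell cannot be told apart. The hour of harvest of each group is not given in the sources used here. For any gene whose mRNA follows the time of day, boron supply and hour cannot be told apart.

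**Figure D1:**
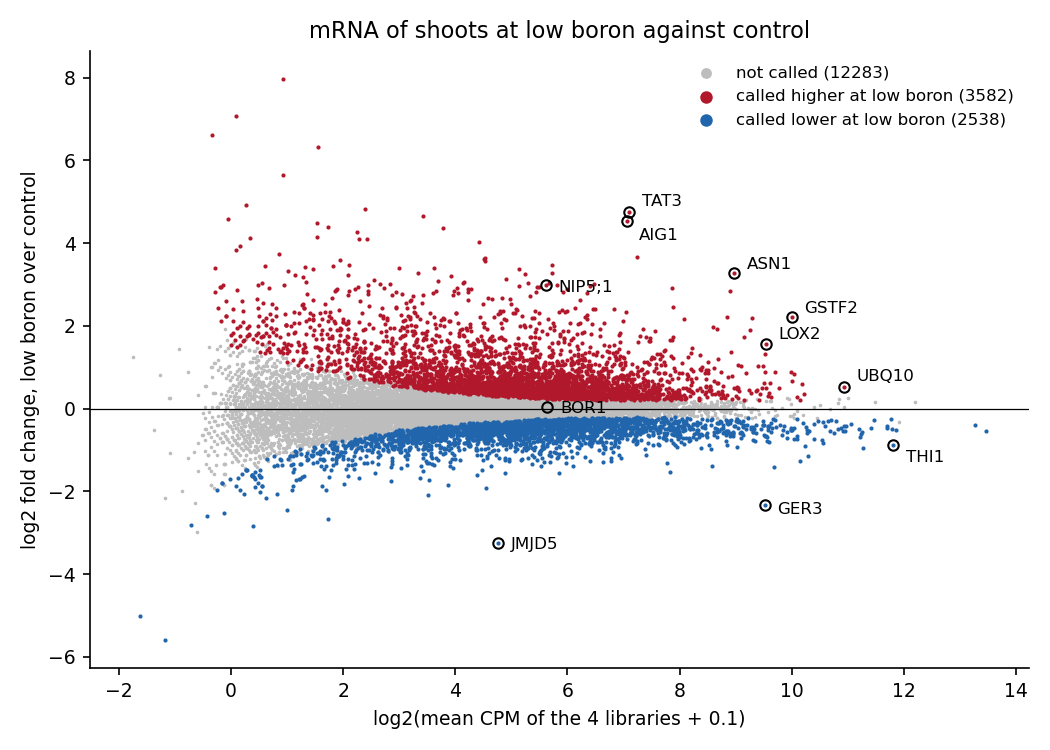
Log2 fold change in mRNA at low boron over control (y axis) against the mean level of the 4 libraries (x axis, log2 CPM), 1 point per gene tested, red for the 3582 genes called higher, blue for the 2538 called lower and grey for those not called. Rises reach further than falls, and the falls of abundant genes such as THI1 and GER3 lie at the right.

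Among the boron transport genes, the channel gene NIP5;1 (AT4G10380) had the far larger response. NIP5;1, which brings boric acid into root cells under low supply, had 91.3 and 83.2 CPM in the low-boron libraries, against 10.6 and 11.5 CPM in the control libraries. Both low-boron libraries stood far above both control libraries, at a log2 fold change of 2.98 ± 0.11 (± SE of the fit, as in all that follow; edgeR adjusted p = 4.09e-10), and the high-boron libraries stood lower still at 5.39 and 4.98 CPM. The boron exporter gene BOR1 (AT2G47160), known to be controlled by boron after transcription, had 52.4 and 48.9 CPM at low boron and 45.7 and 52.7 CPM in control, ranges that overlap (0.04 ± 0.10, adjusted p = 0.782). NIP6;1 (AT1G80760), a boric acid channel of shoot nodes, had 15.3 and 11.8 CPM at low boron and 9.96 and 11.1 CPM in control (0.37 ± 0.17, adjusted p = 0.117). Those ranges do not overlap, but the difference did not pass the threshold. For BOR2 (AT3G62270), a close relative of BOR1, the difference was 0.33 ± 0.21 (adjusted p = 0.256), and for BOR5 (AT1G74810) -0.37 ± 0.28 (adjusted p = 0.347). When control library 3 was left out, BOR5 was called at -0.73. Of the 5 listed transport genes tested, NIP5;1 was the 1 called. AT3G06450, listed as BOR3 but with no such symbol in the RefSeq table, had 78.6 and 73.5 CPM at low boron and 60.0 and 61.3 CPM in control (0.33 ± 0.08, adjusted p = 0.00753). For that gene the adjusted p was 0.101 when low-boron library 2 was left out and 0.0892 with DESeq2.

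The largest rises among well-measured genes (mean log2 CPM of at least 5) included defence, jasmonate and starvation genes. TAT3 (AT2G24850), a tyrosine aminotransferase gene known to answer jasmonate, had 268 and 263 CPM at low boron, against 5.42 and 14.4 CPM in control (4.75 ± 0.26, adjusted p = 9.53e-09). The control libraries differed from each other here, and the change was 5.61 without control library 3. AIG1 (AT1G33960), a GTP-binding protein gene of the response to bacterial effectors, had 232 and 279 CPM at low boron and 11.5 and 10.6 CPM in control (4.53 ± 0.14, adjusted p = 5.19e-11). AT3G53400, whose function is not named in the RefSeq table, had 282 and 281 CPM at low boron and 23.2 and 20.9 CPM in control (3.67 ± 0.09, adjusted p = 6.44e-12). In each of these, both low-boron libraries stood far above both control libraries. WRKY46 (AT2G46400), a transcription factor gene of salicylate defence, had 91.6 and 102 CPM at low boron, against 9.41 and 7.96 CPM in control (3.48 ± 0.14, adjusted p = 5.28e-10). AT5G03190 (RefSeq symbol CPUORF47), named for a conserved upstream reading frame, had 160.1 and 154 CPM at low boron and 18.4 and 20.6 CPM in control (3.01 ± 0.09, adjusted p = 6.07e-11). In both of these the replicate libraries lay close together.

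The other 10 of the 15 largest well-measured rises ranged from 2.83 for BCB (AT5G20230), a blue copper protein gene, to 3.28 for AT1G09932. They included ASN1, NIP5;1 and XTH18, and the genes of a monodehydroascorbate reductase (AT3G09940, 3.04 ± 0.14), which recycles ascorbate, and of the methyltransferase FAMT (AT3G44860, 2.99 ± 0.18). They also included the branched-chain aminotransferase gene BCAT-2 (AT1G10070, 2.97 ± 0.17), the glucanase gene BGL2 (AT3G57260, 2.91 ± 0.22) and the nitrate transporter gene NRT2.6 (AT3G45060, 2.89 ± 0.20). Counted by the share of the library they gained, the largest rises were those of GSTF2, ASN1, EXT4, LOX2, BCB, GSTF6, UBQ10 and EARLI1, together 6437 CPM. GSTF2 (AT4G02520), a glutathione transferase gene, had 1631 and 1750.2 CPM at low boron, against 352 and 379 CPM in control (2.21 ± 0.08, adjusted p = 4.09e-10). EXT4 (AT1G76930), an extensin gene of the cell wall, had 954 and 1105 CPM at low boron and 193 and 257 CPM in control (2.19 ± 0.16, adjusted p = 1.1e-07). The polyubiquitin gene UBQ10 (AT4G05320), often used as a steady control in expression work, had 2208 and 2394 CPM at low boron, against 1557 and 1655 CPM in control (0.52 ± 0.08, adjusted p = 0.000193). Both its low-boron libraries stood above both control libraries.

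**Figure D2:**
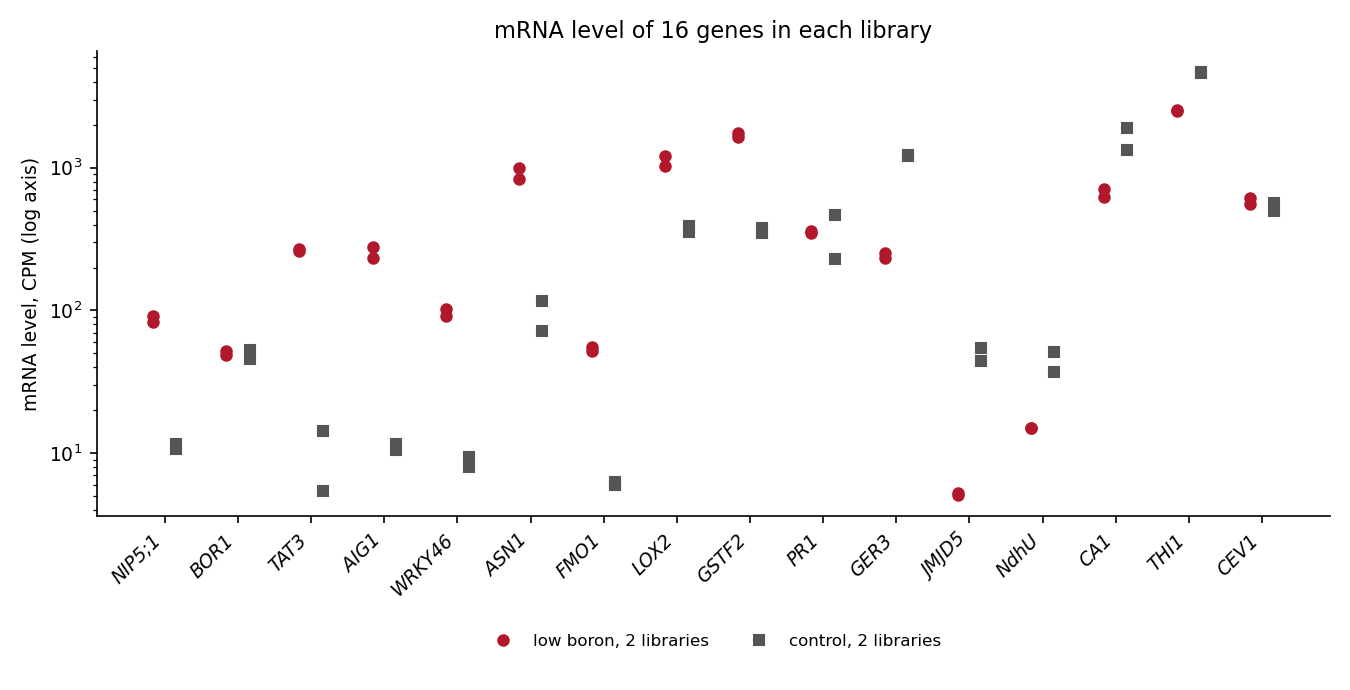
mRNA level of 16 genes in each library (y axis, CPM on a log axis), with the 2 low-boron libraries as red circles left of the 2 control libraries as grey squares. NIP5;1 stands at 91.3 and 83.2 CPM at low boron and 10.6 and 11.5 CPM in control, while BOR1, PR1 and CEV1 overlap between the groups.

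The largest falls among well-measured genes were smaller and included several chloroplast genes. GER3 (AT5G20630), which codes for a germin-like protein of the cell wall, had 254 and 231 CPM at low boron, against 1227 and 1216 CPM in control (-2.33 ± 0.09, adjusted p = 4.09e-10). The other 14 of these 15 falls lay between -1.56 and -1.27. Of them, 3 are subunits of the chloroplast NADH dehydrogenase-like complex, which carries electrons around photosystem I. These were NdhU (AT5G21430), with 14.9 and 15.1 CPM at low boron and 51.1 and 37.2 CPM in control (-1.56 ± 0.15), PnsL2 (AT1G14150, -1.30 ± 0.13) and NdhM (AT4G37925, -1.29 ± 0.11). Lhca6 (AT1G19150), which links that complex to photosystem I, had 53.1 and 45.8 CPM at low boron, against 134 and 104 CPM in control (-1.27 ± 0.11, adjusted p = 1.15e-06). It was the largest fall among the 21 light-harvesting genes tested. CA1 (AT3G01500), the chloroplast carbonic anhydrase gene, had 711 and 629 CPM at low boron, against 1894 and 1330.1 CPM in control (-1.27 ± 0.14, adjusted p = 9.86e-06), and the chloroplast envelope gene OEP6 (AT3G63160) had 118 and 118 CPM at low boron and 382 and 294 CPM in control (-1.52 ± 0.11). The aldolase gene FBA5 (AT4G26530) changed by -1.38 ± 0.08 and the flowering repressor gene COL9 (AT3G07650) by -1.40 ± 0.10. By share of the library the 8 largest falls, together -15271 CPM, were those of CAB1, RBCS1A, THI1, GRP7, LHCB5, PSBO1, RBCS3B and LHCA1. THI1 (AT5G54770), which makes the thiazole part of thiamine, had 2552 and 2517 CPM at low boron, against 4605 and 4694 CPM in control (-0.88 ± 0.08, adjusted p = 1.53e-06). CAB1 (AT1G29930), a chlorophyll-binding protein gene, had 9391 and 9183 CPM at low boron, against 11702 and 15158 CPM in control (-0.53 ± 0.11, adjusted p = 0.00154). At high boron CAB1 had 9530.5 and 10145 CPM, and low boron against high boron was not called (-0.08 ± 0.11, edgeR adjusted p = 0.575). THI1 had 4803.9 and 5184.9 CPM at high boron.

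Genes that make the immune signals salicylate and N-hydroxypipecolate rose almost as a set. Of 9 tested, 8 rose, all at least 2-fold, beside 33.3% called of all genes tested. The median log2 fold change over the 9 was 2.32, against 0.02 over all genes tested. This list and those below were chosen with earlier results of these data known, so their counts are descriptions only. FMO1 (AT1G19250), the enzyme that hydroxylates pipecolate, had 52.3 and 55.5 CPM at low boron, against 6.31 and 6.0 CPM in control (3.13 ± 0.14, adjusted p = 1.91e-09). UGT76B1 (AT3G11340), which attaches glucose to both signals, had 34.3 and 31.8 CPM at low boron and 3.98 and 4.84 CPM in control (2.90 ± 0.17, adjusted p = 2.32e-08). PBS3 (AT5G13320), which acts after isochorismate in salicylate synthesis, had 66.4 and 84.6 CPM at low boron and 9.41 and 11.9 CPM in control (2.83 ± 0.18, adjusted p = 4.64e-08). In all of these the low-boron libraries stood well clear of control. The isochorismate synthase gene ICS1 (AT1G74710) rose by 1.80 ± 0.13, and the paired regulators CBP60G (AT5G26920) and SARD1 (AT1G73805) by 2.21 ± 0.11 and 1.58 ± 0.11. ALD1 (AT2G13810), which makes the precursor of pipecolate, stood at 2.32 ± 0.41, a call lost with DESeq2 (adjusted p = 0.0868). EPS1 (AT5G67160) was not called (0.45 ± 0.23, adjusted p = 0.159).

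Of 18 salicylate signalling genes, 13 rose and the other 5 were not called (median 0.96). The lipase-like partners PAD4 (AT3G52430), EDS1 (AT3G48090) and SAG101 (AT5G14930) rose by 2.42 ± 0.12, 1.80 ± 0.11 and 1.43 ± 0.09. PAD4 had 139.5 and 157 CPM at low boron, against 29.1 and 26.4 CPM in control (adjusted p = 3.55e-09). The helper immune receptor genes ADR1 (AT1G33560), ADR1-L1 (AT4G33300) and ADR1-L2 (AT5G04720) rose by 1.33 ± 0.10, 1.25 ± 0.08 and 0.98 ± 0.09. All 3 helper receptor genes tested were thus higher. The salicylate receptor NPR1 (AT1G64280) and its relative NPR3 (AT5G45110) rose by 0.95 ± 0.09 and 1.05 ± 0.09, while NPR4 (AT4G19660) was not called (0.29 ± 0.12).

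The outputs of this pathway did not move together. BGL2, also known as PR2 and coding for a beta-1,3-glucanase, had 396 and 424 CPM at low boron, against 61.9 and 47.2 CPM in control (2.91 ± 0.22, adjusted p = 2.03e-07). PR5 (AT1G75040), a thaumatin-like protein gene, had 98.4 and 113 CPM at low boron and 37.6 and 36.9 CPM in control (1.51 ± 0.11, adjusted p = 1.91e-07). PR1 (AT2G14610), the most used salicylate marker, had 349 and 360.4 CPM at low boron, against 469 and 228 CPM in control (0.03 ± 0.39, adjusted p = 0.969). The low-boron values of PR1 lay between those of the control libraries, which differed from each other more than the groups did. Of the 7 PR protein, glucanase and chitinase genes tested, 5 rose, and 3 with DESeq2. The others that rose were BG3 (AT3G57240, 2.20 ± 0.14), PDF1.2 (AT5G44420, 1.62 ± 0.42), a defensin gene of the jasmonate and ethylene branch, and PR4 (AT3G04720, 0.67 ± 0.17). PDF1.2 had an adjusted p of 0.264 with DESeq2, 0.151 without low-boron library 3. PR4 had an adjusted p of 0.173 with DESeq2, 0.07 without low-boron library 2.

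Pattern recognition, the sensing of microbial and wall fragments at the cell surface, had 19 of 20 tested genes higher and 1 not called (median 0.68). Most of these rises were under 2-fold, and 4 were larger. RLP23 (AT2G32680), a receptor of microbial peptides, had 96.6 and 115 CPM at low boron, against 17.0 and 13.0 CPM in control (2.81 ± 0.13, adjusted p = 2.58e-09). Its partner kinase SOBIR1 (AT2G31880) had 356 and 367 CPM at low boron and 111 and 107 CPM in control (1.73 ± 0.12, adjusted p = 8.68e-08). The co-receptor gene BKK1 (AT2G13790) and the receptor kinase gene SD1-29 (AT1G61380) rose by 1.18 ± 0.10 and 1.17 ± 0.08. The relay from receptors inward rose in smaller steps: the kinase BIK1 (AT2G39660) by 0.87 ± 0.10, the oxidase RBOHD (AT5G47910), which makes superoxide at the membrane, by 0.71 ± 0.11, and the mitogen-activated kinases MPK3 (AT3G45640) and MPK6 (AT2G43790) by 0.92 ± 0.09 and 0.39 ± 0.08. PEPR2 (AT1G17750), a receptor of wound peptides, was not called (0.66 ± 0.27, adjusted p = 0.074).

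Wall-associated kinases, which bind pectin, and the kinases that monitor wall integrity were split. Of 9 tested, 4 rose and 1 fell. WAK1 (AT1G21250) had 567 and 574 CPM at low boron, against 269 and 226 CPM in control (1.2 ± 0.15, adjusted p = 1.81e-05), and WAK3 (AT1G21240) had 29.8 and 29.0 CPM at low boron and 13.7 and 14.3 CPM in control (1.07 ± 0.15, adjusted p = 6.07e-05). The other calls were WAK2 (AT1G21270, 0.54 ± 0.13), FER (AT3G51550, 0.30 ± 0.09) and the fall of FEI2 (AT2G35620, -0.28 ± 0.10). WAK2 had an adjusted p of 0.115 with DESeq2. FER had an adjusted p of 0.0554 with DESeq2, 0.132 without low-boron library 2, 0.0839 without low-boron library 3, 0.0839 without control library 2. FEI2 had an adjusted p of 0.148 with DESeq2, 0.313 without low-boron library 2, 0.0741 without low-boron library 3, 0.0619 without control library 2, 0.109 without control library 3. THE1 (AT5G54380), the sensor of cellulose damage, had 68.9 and 63.3 CPM at low boron and 56.7 and 62.1 CPM in control, and was not called (0.15 ± 0.09, adjusted p = 0.209). The WAK genes form a cluster of similar sequence, so the split of reads among them is uncertain.

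Transcription factor families of stress responses held many rises. Called were 50% of WRKY, 43.3% of NAC and 40% of ERF genes tested, beside 33.3% of all genes tested. Of 56 WRKY genes tested, 27 rose, 16 of them at least 2-fold, and 1 fell, a fall not called with DESeq2 or when low-boron library 2, low-boron library 3 or control library 3 was left out. WRKY75 (AT5G13080) rose by 2.19 ± 0.38 and WRKY53 (AT4G23810) by 1.81 ± 0.13. WRKY40 (AT1G80840) had 58.0 and 62.2 CPM at low boron, against 9.07 and 21.8 CPM in control (1.97 ± 0.23, adjusted p = 1.38e-05), and stood at 2.73 without control library 3. Of 67 NAC genes tested, 27 rose and 2 fell, and 0 fell with DESeq2 or when low-boron library 2, low-boron library 3 or control library 2 was left out. NAC019 (AT1G52890), a jasmonate- and abscisic-acid-inducible factor, had 49.7 and 46.1 CPM at low boron and 9.18 and 12.2 CPM in control (2.16 ± 0.14, adjusted p = 4.55e-08). NAC016 (AT1G34180), a promoter of leaf senescence, rose by 1.89 ± 0.20 and NAC090 (AT5G22380) by 2.90 ± 0.39. Of 20 ERF genes, 8 rose, and 4 with DESeq2, 5 without low-boron library 2, 3 without low-boron library 3 and 4 without control library 2. ERF11 (AT1G28370) rose by 1.87 ± 0.25 and ERF2 (AT5G47220) by 1.43 ± 0.14. Calmodulin-like genes, whose products bind calcium, had 6 of 11 higher. CML41 (AT3G50770) had 67.1 and 69.0 CPM at low boron, against 6.64 and 7.49 CPM in control (3.27 ± 0.13, adjusted p = 5.42e-10), and TCH3 (AT2G41100), also touch-inducible, had 843 and 899.6 CPM at low boron and 242 and 287 CPM in control (1.72 ± 0.14).

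Jasmonate genes rose in synthesis, repression and turnover, while the perception genes tested were not called. Of 15 synthesis genes tested, 13 rose (median 0.90). LOX2 (AT3G45140), the plastid lipoxygenase that starts the pathway, had 1025 and 1199 CPM at low boron, against 357 and 390.5 CPM in control (1.57 ± 0.10, adjusted p = 3.45e-08). The cyclase gene AOC3 (AT3G25780) had 38.2 and 38.4 CPM at low boron and 5.31 and 8.07 CPM in control (2.52 ± 0.17, adjusted p = 5.64e-08), and the reductase gene OPR3 (AT2G06050) rose by 1.12 ± 0.09. AOC4 (AT1G13280) was not called (0.11 ± 0.13). Of 11 JAZ repressor genes, which are both targets and brakes of the pathway, 7 rose. JAZ5 (AT1G17380), JAZ10 (AT5G13220) and JAZ1 (AT1G19180) rose by 3.28 ± 0.31, 2.46 ± 0.21 and 2.08 ± 0.11, and JAZ12 (AT5G20900) was not called (0.23 ± 0.09). Turnover genes rose too: CYP94C1 (AT2G27690), which oxidises the active hormone, by 2.14 ± 0.28 (2.78 without control library 3), and the amidohydrolase genes IAR3 (AT1G51760) and ILL6 (AT1G44350), which cleave it, by 1.38 ± 0.12 and 1.17 ± 0.19. The receptor gene COI1 (AT2G39940) and the factor genes MYC3 (AT5G46760) and MYC4 (AT4G17880) were not called (0.22 ± 0.11, 0.09 ± 0.09 and -0.18 ± 0.15). Among outputs, VSP1 (AT5G24780), a storage protein gene, had 28.4 and 25.1 CPM at low boron, against 4.09 and 6.69 CPM in control (2.32 ± 0.29, adjusted p = 2.62e-05). NATA1 (AT2G39030), which acetylates ornithine, had 20.0 and 20.7 CPM at low boron and 1.33 and 0.231 CPM in control (4.66 ± 0.37, adjusted p = 3.77e-07), and stood at 6.38 without control library 2 and 3.92 without control library 3.

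Genes that rise within minutes of wounding or touch were 11 of 15 higher, with 4 not called. Their summed level was between 1985 and 2071 CPM at low boron, against 645.9 and 977.8 CPM in the control libraries, which differed from each other. BAP1 (AT3G61190), an inhibitor of cell death, had 14.1 and 15.1 CPM at low boron and 3.87 and 2.31 CPM in control (2.23 ± 0.24, adjusted p = 6.12e-06). The zinc finger gene ZAT12 (AT5G59820) had 22.3 and 25.3 CPM at low boron, against 3.76 and 7.26 CPM in control (2.11 ± 0.22, adjusted p = 4.2e-06). How the shoots were handled at harvest is not given in the sources used here, and its part in these rises was not tested.

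Ethylene genes rose in part. Of 21 tested, 13 rose, mostly by less than 2-fold, and the other 8 were not called. Synthase genes of the ethylene precursor differed among themselves: ACS11 (AT4G08040) had 14.6 and 17.2 CPM at low boron, against 2.1 and 3.0 CPM in control (2.63 ± 0.25, adjusted p = 1.9e-06), whereas ACS7 (AT4G26200) was not called (0.24 ± 0.24). The receptors ERS1 (AT2G40940), ERS2 (AT1G04310) and ETR2 (AT3G23150) rose by 0.71 ± 0.08, 0.88 ± 0.15 and 0.54 ± 0.11, and ETR1 (AT1G66340) was not called (0.16 ± 0.12). EIN2 (AT5G03280), the central relay, stood at -0.05 ± 0.08 (adjusted p = 0.715).

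Cytokinin genes that rose included those of its breakdown and synthesis. Of 19 tested, 7 rose and 2 fell, or 47.4% called beside 33.3% of all genes tested. The cytokinin oxidase genes CKX4 (AT4G29740) and CKX5 (AT1G75450), which degrade the hormone, rose by 1.23 ± 0.22 and 1.70 ± 0.36, and CKX3 (AT5G56970) had 1.81 and 2.62 CPM at low boron, against 0.111 and 0.115 CPM in control (4.13 ± 0.80, adjusted p = 0.001). IPT7 (AT3G23630), a synthesis gene, had 2.60 and 2.62 CPM at low boron and 0 and 0.461 CPM in control (3.45 ± 0.67, adjusted p = 0.00107), and its fitted change was 2.47 without control library 2 and 7.51 without control library 3. Control levels of CKX3 and IPT7 were near 0, so the sizes of both folds are loose. The receptor AHK2 (AT5G35750) fell to 33.4 CPM at low boron, against 48.6 CPM in control (-0.54 ± 0.11).

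Gibberellin and brassinosteroid genes moved little. The share called was 23.1% for gibberellin and 10% for brassinosteroid genes, beside 33.3% of all genes tested. Of 13 gibberellin genes tested, GID1B (AT3G63010), a receptor gene, had 28.5 and 32.2 CPM at low boron, against 10.7 and 11.9 CPM in control (1.42 ± 0.14, adjusted p = 2.76e-06). Its relatives GID1A (AT3G05120) and GID1C (AT5G27320) were not called (0.27 ± 0.11 and 0.28 ± 0.14). GA2OX2 (AT1G30040, 0.79 ± 0.22) and GAI (AT1G14920, -0.44 ± 0.11) were also called. GA2OX2 had an adjusted p of 0.0907 with DESeq2, 0.062 without low-boron library 2, 0.0792 without low-boron library 3. GAI had an adjusted p of 0.0625 without low-boron library 2, 0.0625 without low-boron library 3, 0.0864 without control library 2. Of 10 brassinosteroid genes, 1 was called, the synthesis gene CPD (AT5G05690), with 113 and 109 CPM at low boron, against 141 and 145 CPM in control (-0.37 ± 0.08, adjusted p = 0.00229). The receptor gene BRI1 (AT4G39400) stood at 0.14 ± 0.08 (adjusted p = 0.212).

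**Figure D3:**
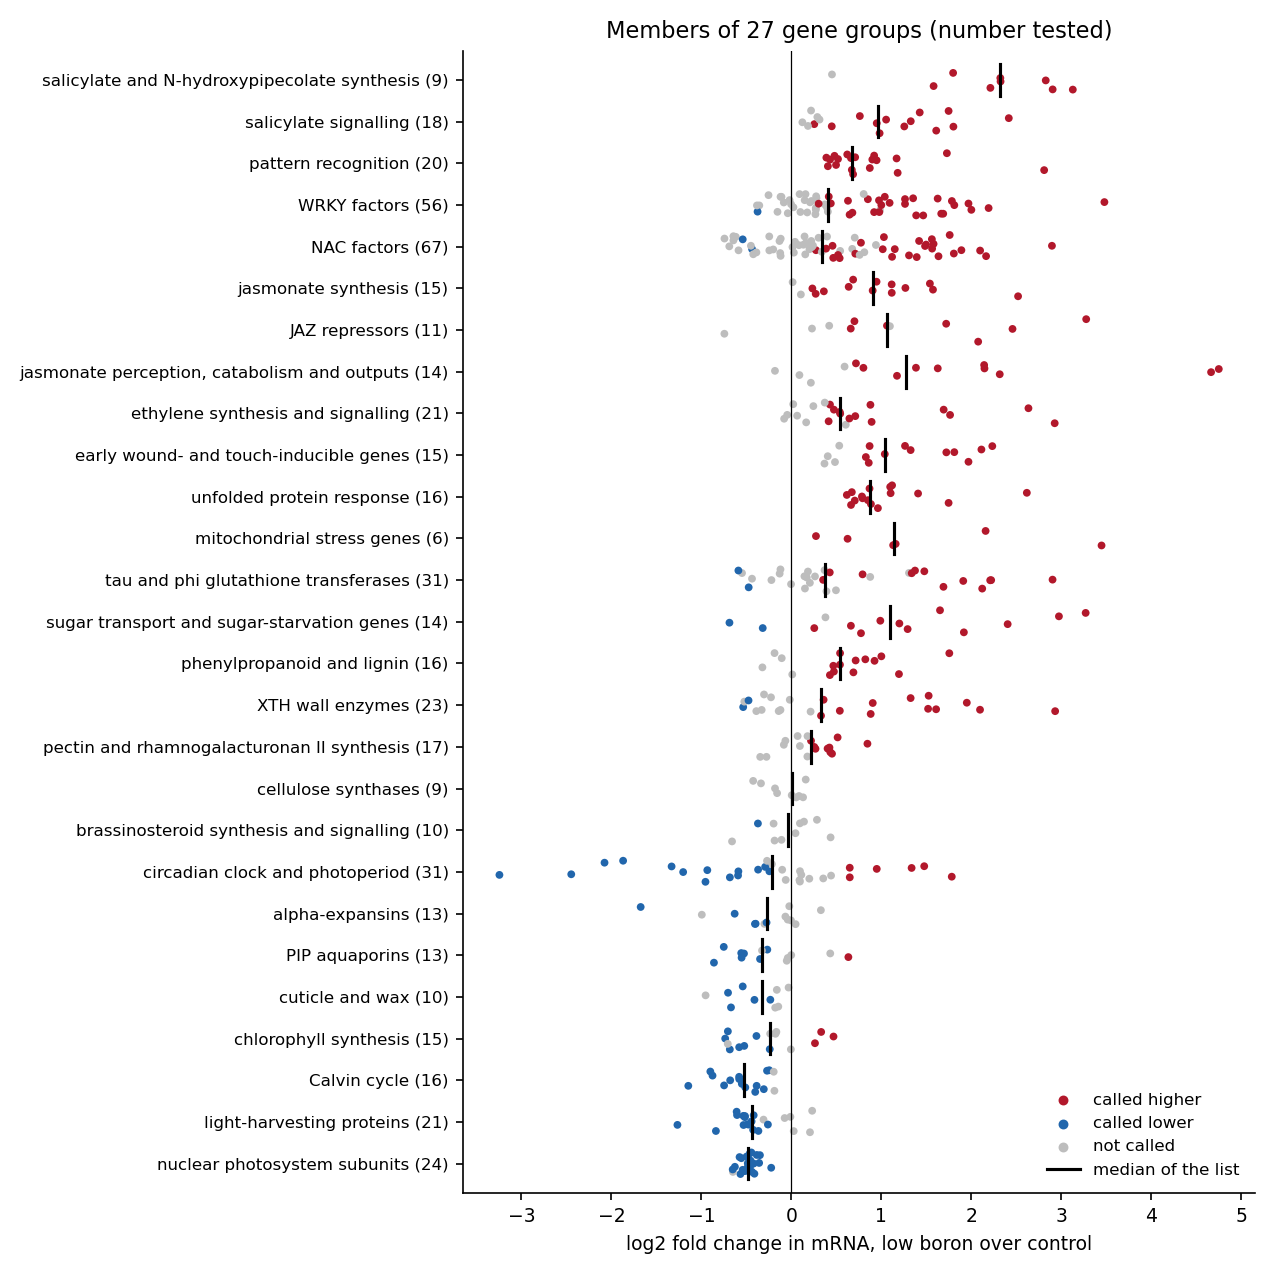
Log2 fold change in mRNA at low boron over control (x axis) of the tested members of 27 gene groups (rows, with the number tested), 1 point per gene, red where called higher, blue where called lower, grey where not called, with a black bar at the median of each group. The jasmonate, ethylene, immune and folding groups lie mostly right of 0 and the photosynthesis groups left of it. The brassinosteroid group lies around 0, with a median of -0.03.

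About as many genes of pectin synthesis rose as were not called, and the rises were small. Of 17 pectin and rhamnogalacturonan II genes tested, 9 rose, none by 2-fold, and the median was 0.22. The rhamnose synthase gene RHM1 (AT1G78570) had 207 and 217 CPM at low boron, against 113 and 124 CPM in control (0.84 ± 0.09, adjusted p = 4.92e-06). The UDP-glucuronate genes UGD3 (AT5G15490) and UGD2 (AT3G29360) rose by 0.51 ± 0.09 and 0.42 ± 0.09. RGXT2 (AT4G01750), which adds xylose to rhamnogalacturonan II, and MUR1 (AT3G51160), needed for its fucose, stood at 0.45 ± 0.15 and 0.43 ± 0.11. RGXT2 had an adjusted p of 0.155 with DESeq2, 0.11 without low-boron library 2, 0.148 without low-boron library 3, 0.158 without control library 2. MUR1 had an adjusted p of 0.195 without low-boron library 2. KDSB (AT1G53000), which activates the sugar Kdo found only in that pectin, was not called (-0.07 ± 0.10, adjusted p = 0.644). The count of 9 was 5 with DESeq2, 4 without low-boron library 2, and 5 without low-boron library 3 or control library 2.

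Genes that remodel the wall were split by family. Of 23 XTH genes, which cut and rejoin xyloglucan, 12 rose and 2 fell, 7 of the rises at least 2-fold. The falls were XTH9 (AT4G03210, -0.48 ± 0.08) and XTH8 (AT1G11545, -0.54 ± 0.15), and numbered 4 with no filter on low counts or without control library 2. XTH8 had an adjusted p of 0.0567 with DESeq2, 0.166 without low-boron library 3, 0.0527 without control library 3. XTH18 (AT4G30280) had 78.5 and 79.7 CPM at low boron, against 5.98 and 14.9 CPM in control (2.93 ± 0.22, adjusted p = 2.14e-07), and 3.72 without control library 3. XTR6 (AT4G25810) rose by 1.61 ± 0.15 and TCH4 (AT5G57560) by 1.33 ± 0.13. Of 13 alpha-expansins, which loosen walls, 5 fell. EXPA8 (AT2G40610) had 5.66 and 4.05 CPM at low boron, against 15.2 and 16.0 CPM in control (-1.68 ± 0.20, adjusted p = 1.6e-05), and EXPA5 (AT3G29030) changed by -0.63 ± 0.14. Of 9 pectin methylesterase genes, 4 rose and 1 fell: AT2G45220 had 30.7 and 27.5 CPM at low boron, against 9.74 and 5.65 CPM in control (1.91 ± 0.25), and PME5 (AT5G47500) had 68.6 and 72.6 CPM at low boron and 107 and 151 CPM in control (-0.87 ± 0.13). Of 14 fasciclin-like arabinogalactan genes, 5 fell and 1 rose, the clearest being FLA8 (AT2G45470), with 108 and 105 CPM at low boron and 219 and 245 CPM in control (-1.13 ± 0.10, adjusted p = 9.37e-07). In this family 2 fell with DESeq2 or without low-boron library 3, and 3 without low-boron library 2 or control library 3. The 1 rise was that of FLA18 (AT3G11700, 0.21 ± 0.08). FLA18 had an adjusted p of 0.0948 with DESeq2 size factors, 0.236 with DESeq2, 0.0695 with no filter on low counts, 0.092 with only the 4 libraries in the fit, 0.248 without low-boron library 2, 0.159 without low-boron library 3, 0.107 without control library 2, 0.101 without control library 3, 0.0599 without high-boron library 2. Among the expansins 3 fell with DESeq2, and 2 without low-boron library 3 or control library 3. Among 9 cellulose synthase genes, edgeR, DESeq2 and limma voom called 0, with 1 at an unadjusted p under 0.05, and their changes ran from -0.43 to 0.16. The share called was 60.9% for XTH, 38.5% for expansin, 55.6% for pectin methylesterase and 42.9% for fasciclin-like genes, beside 33.3% of all genes tested.

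Most listed genes of the phenylpropanoid and indolic compound pathways rose. Of 16 phenylpropanoid genes, 12 rose (median 0.54). PAL1 (AT2G37040), the entry enzyme, had 237 and 244 CPM at low boron, against 72.5 and 70.1 CPM in control (1.75 ± 0.08, adjusted p = 1.91e-09), and C4H (AT2G30490) and CAD5 (AT4G34230) rose by 1.2 ± 0.10 and 1.00 ± 0.08. The laccase genes LAC4 (AT2G38080) and LAC17 (AT5G60020), which join lignin units in the wall, were not called (-0.32 ± 0.16 and 0.01 ± 0.18). Of 14 indolic glucosinolate and camalexin genes, 9 rose. PAD3 (AT3G26830), the last enzyme of camalexin synthesis, had 74.1 and 63.0 CPM at low boron, against 16.0 and 19.8 CPM in control (1.94 ± 0.14, adjusted p = 1.14e-07), and the regulator MYB51 (AT1G18570) rose by 1.16 ± 0.10. In the aliphatic branch, 2 of 13 rose and 3 fell, or 38.5% called beside 33.3% of all genes tested. The 3 that fell act on breakdown of the finished compounds: the myrosinases TGG1 (AT5G26000, -0.45 ± 0.08) and TGG2 (AT5G25980, -0.56 ± 0.11) and the modifier ESM1 (AT3G14210, -0.59 ± 0.08). The 2 rises were 0 with DESeq2 or without low-boron library 3 or control library 2, 1 without low-boron library 2 or high-boron library 2, and 5 without control library 3. Of 10 flavonoid genes, LDOX (AT4G22880) rose (1.05 ± 0.20) and MYB111 (AT5G49330) fell (-1.12 ± 0.35), while chalcone synthase, TT4 (AT5G13930), was not called (0.25 ± 0.18). These 2 calls were 20% of the 10, below the 33.3% called of all genes tested. MYB111 had an adjusted p of 0.107 with DESeq2, 0.0638 without low-boron library 2, 0.173 without low-boron library 3, 0.152 without control library 2.

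Genes for folding proteins in the endoplasmic reticulum rose without exception among the 16 listed, with changes from 0.62 to 2.62. The list was chosen with earlier results of these data known. BIP3 (AT1G09080), a chaperone made mainly under stress, had 33.4 and 31.1 CPM at low boron, against 6.09 and 4.38 CPM in control (2.62 ± 0.17, adjusted p = 4.88e-08). The calreticulin gene CRT3 (AT1G08450), which serves immune receptor folding, had 304 and 314 CPM at low boron and 118 and 115 CPM in control (1.41 ± 0.08, adjusted p = 1.64e-08). The sensor IRE1A (AT2G17520) and the factors it and proteolysis activate, BZIP60 (AT1G42990) and BZIP28 (AT3G10800), rose by 0.67 ± 0.10, 1.1 ± 0.09 and 0.79 ± 0.09. NAC103 (AT5G64060), a factor downstream of BZIP60, stood at 1.12 ± 0.38. NAC103 had an adjusted p of 0.173 with DESeq2, 0.0545 with limma voom, 0.0517 with only the 4 libraries in the fit, 0.328 without low-boron library 3, 0.0894 without control library 2, 0.101 without control library 3, 0.0524 without high-boron library 2. Over the alternatives 13 to 16 of the 16 were called. The 6 mitochondrial stress genes tested rose as well, the smallest rise being that of NAC017 (AT1G34190, 0.27 ± 0.09). NAC017 had an adjusted p of 0.0523 with DESeq2 size factors, 0.198 with DESeq2, 0.072 with only the 4 libraries in the fit, 0.107 without low-boron library 2, 0.178 without low-boron library 3, 0.23 without control library 2. OM66 (AT3G50930), of the outer mitochondrial membrane, had 82.0 and 82.1 CPM at low boron, against 15.6 and 21.2 CPM in control (2.16 ± 0.12, adjusted p = 1.26e-08), and the alternative oxidase gene AOX1A (AT3G22370) rose by 0.62 ± 0.10. Its relative AOX1D (AT1G32350) had 7.92 and 4.65 CPM at low boron and 0.332 and 0.807 CPM in control (3.45 ± 0.46), and 4.19 without control library 3.

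Detoxification and oxidant genes differed by kind. Of 31 tau and phi glutathione transferases, 12 rose and 2 fell, or 45.2% called beside 33.3% of all genes tested. GSTU4 (AT2G29460) had 38.2 and 30.3 CPM at low boron, against 4.54 and 4.61 CPM in control (2.90 ± 0.20, adjusted p = 7.79e-08), and GSTF6 (AT1G02930) had 945 and 991 CPM at low boron and 227 and 289 CPM in control (1.91 ± 0.10). Superoxide dismutases, by contrast, moved in both directions: the cytosolic CSD1 (AT1G08830) rose by 0.53 ± 0.08 and the chloroplast CSD2 (AT2G28190) changed by -0.40 ± 0.08. CAT3 (AT1G20620), a catalase gene, was not called (0.16 ± 0.08, adjusted p = 0.164). Of 9 low-oxygen genes, SUS1 (AT5G20830) and HB1 (AT2G16060) rose, by 0.59 ± 0.08 and 0.86 ± 0.22. These were 22.2% of the 9, close to the 19.5% higher of all genes tested. HB1 had an adjusted p of 0.056 with DESeq2, 0.0898 without low-boron library 2, 0.0541 without control library 2. Meanwhile ADH1 (AT1G77120), the usual marker, was not called (-0.42 ± 0.19, adjusted p = 0.118). LBD41 (AT3G02550) had 18.3 and 16.7 CPM at low boron, against 7.97 and 56.8 CPM in control, where 1 control library alone set the direction of the difference (-0.88 ± 0.52, adjusted p = 0.217, and 1.13 without control library 3).

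Other large families moved in both directions. Called were 46.6% of cytochromes P450, 41.5% of UGT glycosyltransferases and 40% of light signalling genes, beside 33.3% of all genes tested. Of all genes tested, 19.5% rose and 13.8% fell. Of 133 cytochromes P450 tested, 43 rose and 19 fell, and 21 rose with DESeq2, 27 without low-boron library 2 and 24 without low-boron library 3, where 12 fell. Of 53 UGT glycosyltransferases, 15 rose and 7 fell, and 4 fell without low-boron library 2, and 9 rose without low-boron library 3. UGT76B1, described above, was among those that rose. Of 15 light signalling genes, 5 rose and 1 fell, and 2 rose with DESeq2 or without either low-boron library.

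Most sugar transport and starvation genes rose. Of 14 sugar transport and starvation genes, 11 rose and 2 fell (median 1.09). ASN1 (AT3G47340, also DIN6), an asparagine synthetase gene induced in the dark, had 829 and 992 CPM at low boron, against 71.8 and 117 CPM in control (3.27 ± 0.17, adjusted p = 5.47e-09). SEN1 (AT4G35770, also DIN1), a marker of senescing leaves, had 165 and 217 CPM at low boron and 22.2 and 50.2 CPM in control (2.40 ± 0.23, adjusted p = 2.1e-06), and 3.1 without control library 3. The high-boron libraries held 47.5 and 56.0 CPM of ASN1 and 19.4 and 24.4 CPM of SEN1. Sugar uptake genes that rose included the cell wall invertase gene CWINV1 (AT3G13790) at 1.65 ± 0.14 and the hexose carrier genes STP13 (AT5G26340) and STP1 (AT1G11260) at 1.2 ± 0.09 and 0.99 ± 0.09. The sucrose efflux genes SWEET11 (AT3G48740) and SWEET12 (AT5G23660), which load the phloem, were lower (-0.32 ± 0.08 and -0.69 ± 0.12). SWEET11 had an adjusted p of 0.101 without low-boron library 2.

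Nitrogen genes moved in both directions. Of 14, 7 rose and 4 fell. The glutamate dehydrogenase genes GDH2 (AT5G07440) and GDH1 (AT5G18170), which release ammonium, rose: GDH2 had 268 and 325 CPM at low boron, against 69.6 and 90.6 CPM in control (1.89 ± 0.12, adjusted p = 4.04e-08), and GDH1 changed by 1.17 ± 0.10. The cytosolic glutamine synthetase gene GLN1;1 (AT5G37600) rose by 0.62 ± 0.08, while the chloroplast form GS2 (AT5G35630), the ferredoxin glutamate synthase GLU1 (AT5G04140) and nitrite reductase NIR1 (AT2G15620) were lower (-0.55 ± 0.08, -0.53 ± 0.10 and -0.55 ± 0.08). Without low-boron library 2 or control library 2, 4 of the 7 rises were called. The listed autophagy genes, which recycle cell contents, had 7 of 29 higher, or 24.1%, beside 19.5% higher of all genes tested. APG8A (AT4G21980) rose by 0.64 ± 0.11. The 7 were 3 with DESeq2, 4 without low-boron library 2 and 1 without low-boron library 3.

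Nuclear photosynthesis genes fell together and by modest amounts. Of 24 nuclear photosystem subunit genes, 23 fell, with changes over the 24 between -0.65 and -0.22. Of 21 light-harvesting genes, 15 fell, and their summed level was between 37010 and 39010 CPM at low boron, against 47220 and 55360 CPM in control. Of 16 Calvin cycle genes, 14 fell (median -0.53), summing to 23120 and 23240 CPM at low boron, against 30410 and 33880 CPM in control. PSBQ-2 (AT4G05180), of the oxygen-evolving complex, had 876 and 830.1 CPM at low boron, against 1316 and 1366 CPM in control (-0.65 ± 0.08, adjusted p = 3.35e-05). RBCS2B (AT5G38420), a Rubisco small subunit gene, had 784 and 772 CPM at low boron and 1946 and 1498 CPM in control (-1.15 ± 0.11, adjusted p = 2.72e-06), and HCEF1 (AT3G54050), a fructose bisphosphatase gene, had 337 and 315 CPM at low boron and 634 and 563 CPM in control (-0.88 ± 0.09). The low-boron libraries stood below both control libraries in each. Rubisco activase, RCA (AT2G39730), fell less (-0.25 ± 0.09). RCA had an adjusted p of 0.201 without low-boron library 2, 0.295 without low-boron library 3, 0.163 without control library 2. Of 7 photorespiration genes, 5 fell, among them GLDP1 (AT4G33010, -0.73 ± 0.11), and 3 without low-boron library 3. Of 34 chloroplast-encoded genes tested, 5 fell, and 0 with DESeq2 or without low-boron library 2, 2 without low-boron library 3 and 3 without control library 3. These mRNAs made up 0.0155% to 0.0208% of the counts. Their 5 falls were 14.7% of the 34, close to the 13.8% lower of all genes tested.

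Chlorophyll genes fell less evenly. Of 15 synthesis genes, 7 fell and 3 rose, and 1 rose without low-boron library 2. PORB (AT4G27440) and PORC (AT1G03630), which act at the light-driven step, changed by -0.74 ± 0.09 and -0.71 ± 0.08, and CHLM (AT4G25080) by -0.58 ± 0.08. The regulator GLK2 (AT5G44190) had 89.8 and 80.3 CPM at low boron, against 62.5 and 60.5 CPM in control (0.47 ± 0.09, adjusted p = 0.00102), a rise, while GLK1 (AT2G20570) was not called (-0.01 ± 0.11). Of 6 breakdown genes, 3 rose, among them PPH (AT5G13800, 0.61 ± 0.08) and PAO (AT3G44880, 0.43 ± 0.08), and 2 fell. The falls were those of NYC1 (AT4G13250, -0.31 ± 0.09) and ACD2 (AT4G37000, -0.39 ± 0.09). NYC1 had an adjusted p of 0.0942 without low-boron library 2, 0.143 without low-boron library 3, 0.177 without control library 2. ACD2 had an adjusted p of 0.0528 without low-boron library 2.

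Clock genes changed in both directions. Of 31 clock and photoperiod genes, 6 rose and 14 fell. The morning factor CCA1 (AT2G46830) had 22.2 and 19.3 CPM at low boron, against 7.52 and 7.38 CPM in control (1.48 ± 0.16, adjusted p = 6.49e-06). Its partner LHY (AT1G01060) had 11.7 and 12 CPM at low boron, against 5.42 and 3.92 CPM in control (1.34 ± 0.21, adjusted p = 0.000155). RVE8 (AT3G09600), a related activator, rose by 1.78 ± 0.30, and its partners LNK1 (AT5G64170) and LNK2 (AT3G54500) by 0.65 ± 0.09 and 0.65 ± 0.10. All of these peak around dawn or in the morning. Of evening genes, JMJD5 (AT3G20810), a histone demethylase of the clock, had 5.09 and 5.24 CPM at low boron, against 54.2 and 43.9 CPM in control (-3.25 ± 0.16, adjusted p = 3.5e-09). In the evening complex, ELF4 (AT2G40080) had 22.9 and 24.0 CPM at low boron, against 65.5 and 52.2 CPM in control (-1.33 ± 0.12), and LUX (AT3G46640) had 44.9 and 46.8 CPM at low boron and 73.3 and 74.1 CPM in control (-0.68 ± 0.08). Neither pair of groups overlapped. TOC1 (AT5G61380), PRR3 (AT5G60100) and FKF1 (AT1G68050) changed by -0.59 ± 0.09, -0.93 ± 0.10 and -0.59 ± 0.08. Against the direction of the morning genes named above, RVE2 (AT5G37260), a relative of CCA1, had 4.53 and 4.17 CPM at low boron, against 18.1 and 18.7 CPM in control (-2.08 ± 0.19, adjusted p = 1.06e-06). The flowering regulator CO (AT5G15840) had 0.905 and 0.238 CPM at low boron, against 2.43 and 4.04 CPM in control (-2.45 ± 0.54, adjusted p = 0.00262), and stood at -3.68 without low-boron library 2 and -1.82 without low-boron library 3. PRR7 (AT5G02810) and ZTL (AT5G57360) were not called (0.09 ± 0.08 and -0.06 ± 0.09).

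The high-boron libraries bear on this pattern, since their clock genes also stood apart from control. JMJD5 had 9.50 and 9.31 CPM there, ELF4 24.8 and 26.1 CPM, CCA1 29.1 and 24.7 CPM and the clock-driven RNA-binding gene GRP7 (AT2G21660) 1698 and 1778 CPM. GRP7 had 1587 and 1759 CPM at low boron, against 3300.5 and 3187 CPM in control (-0.96 ± 0.08, adjusted p = 8.22e-07). Tested directly, low boron against high boron gave -0.12 ± 0.13 for ELF4 (adjusted p = 0.488), -0.06 ± 0.08 for GRP7 (0.631), 0.16 ± 0.09 for LUX (0.159) and -0.86 ± 0.20 for JMJD5 (0.00263). The comparisons with low and with high boron share the control libraries. The hour of harvest of each group is not given in the sources used here, so boron supply and time of day cannot be told apart for these genes. COL9 showed the same layout, with 24.1 and 26.6 CPM at low boron, against 66.8 and 66.5 CPM in control and 23.5 and 23.1 CPM at high boron.

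**Figure D4:**
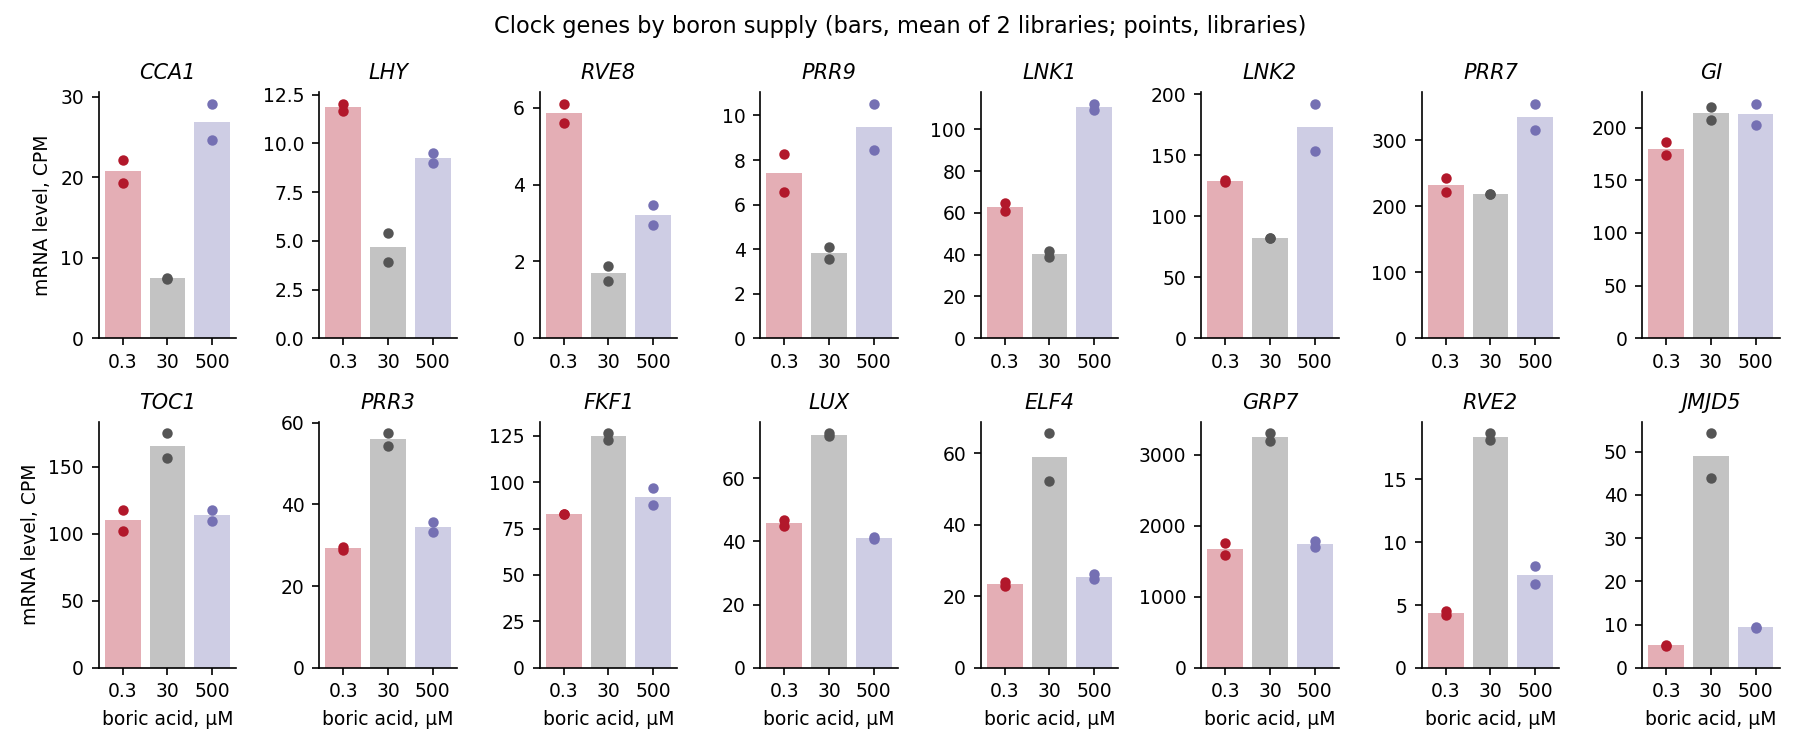
mRNA level (y axis, CPM) of 16 clock genes at 0.3, 30 and 500 µM boric acid (x axis), bars giving the mean of 2 libraries and points each library. The control stands lowest for CCA1, LHY, RVE8, PRR9, LNK1 and LNK2, and highest for TOC1, PRR3, FKF1, LUX, ELF4, GRP7, RVE2 and JMJD5.

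Set against high boron, low boron gave larger or smaller differences for the same genes. In the same fit, 7799 of 18403 genes were called between low and high boron (42.4%), 4246 higher (23.1%) and 3553 lower (19.3%) at low boron, with 1403 at least 2-fold higher (7.62%) and 631 at least 2-fold lower (3.43%). NIP5;1, which differed by 2.98 ± 0.11 from control, differed by 4.07 ± 0.13 from high boron (adjusted p = 3.09e-11). ASN1, the asparagine synthetase gene, stood 4.13 ± 0.18 above high boron (adjusted p = 3.4e-10) and 3.27 ± 0.17 above control. FMO1 held 52.3 and 55.5 CPM at low boron, 6.31 and 6.0 CPM in control and 1.93 and 1.41 CPM at high boron. For GER3 the levels were 254 and 231 CPM at low boron, 1227 and 1216 CPM in control and 812 and 896 CPM at high boron. These comparisons share the low-boron libraries.

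Some aquaporin and cuticle genes fell. Of 13 plasma membrane aquaporins (PIP), 7 fell and 1 rose. Without low-boron library 3, 4 fell, and 0 rose with DESeq2 or when low-boron library 2, low-boron library 3 or control library 2 was left out. PIP1C (AT1G01620) had 197 and 184 CPM at low boron, against 307 and 386 CPM in control (-0.86 ± 0.10, adjusted p = 1.85e-05). Of 4 tested vacuolar aquaporins (TIP), 3 fell. GAMMA-TIP (AT2G36830), typical of expanding cells, had 179 and 163 CPM at low boron and 286 and 342 CPM in control (-0.88 ± 0.09, adjusted p = 4.92e-06), and TIP2;2 (AT4G17340) was not called (-0.01 ± 0.09). Of 10 cuticle and wax genes, 5 fell, and 3 without low-boron library 3 or control library 3. GPAT8 (AT4G00400) and GPAT4 (AT1G01610), which make cutin precursors, changed by -0.70 ± 0.11 and -0.54 ± 0.10.

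Families linked to growth differed in their share of calls. Called were 23.8% of Aux/IAA, 31.7% of SAUR, 38.9% of TCP and 50% of cell division genes tested. Of all genes tested, 33.3% were called and 13.8% were lower. Of 41 SAUR genes, auxin-inducible genes of expanding cells, 8 fell and 5 rose, or 31.7% called beside 33.3% of all genes tested. In that family 2 fell with DESeq2, 1 without low-boron library 2, 3 without low-boron library 3 and 4 without control library 2, and 3 rose with DESeq2 or without low-boron library 3. Of 21 Aux/IAA genes, which repress auxin responses, 5 fell, among them SHY2 (AT1G04240), with 11.5 and 8.82 CPM at low boron, against 20.8 and 17.2 CPM in control (-0.90 ± 0.17, adjusted p = 0.000991). In that family 3 fell with DESeq2 or without low-boron library 2, and 2 without low-boron library 3. Of 10 cell division genes, 5 fell, and 3 without low-boron library 2 or control library 3 and 2 without low-boron library 3. The cyclin gene CYCD3;2 (AT5G67260) had 53.7 and 52.1 CPM at low boron, against 79.1 and 85.0 CPM in control (-0.63 ± 0.09, adjusted p = 5.46e-05), and it alone of the 5 was called in each alternative. CYCB1;1 (AT4G37490), a marker of cells about to divide, had 16.1 and 12.5 CPM at low boron and 12.1 and 14.8 CPM in control (0.10 ± 0.17, adjusted p = 0.71). Of 18 TCP genes, regulators of leaf growth, 6 fell and 1 rose. TCP4 (AT3G15030) had 38.1 and 36.9 CPM at low boron, against 66.0 and 62.5 CPM in control (-0.77 ± 0.09, adjusted p = 1.83e-05).

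Markers of cell types moved beside these groups. Of 6 epidermis and trichome markers, 4 fell and 2 were not called, and their sum was between 533.8 and 587.3 CPM at low boron, against 715.9 and 863 CPM in control. PDF1 (AT2G42840), a marker of the outer cell layer, had 214 and 193 CPM at low boron and 258 and 346 CPM in control (-0.57 ± 0.12, adjusted p = 0.00149). Of 8 guard cell and stomatal lineage markers, 4 fell, with sums of 96.17 and 97.12 CPM at low boron, against 132.2 and 142.5 CPM in control. TMM (AT1G80080), of the stomatal lineage, changed by -0.64 ± 0.10 and FAMA (AT3G24140) by -0.52 ± 0.12. Of 4 phloem markers 1 rose, SUC2 (AT1G22710), at 0.25 ± 0.09, with sums of 287.8 to 321.8 CPM at low boron and 291.5 to 316.1 CPM in control. SUC2 had an adjusted p of 0.0793 with DESeq2 size factors, 0.179 with DESeq2, 0.0541 with the strict filter, 0.0809 with only the 4 libraries in the fit, 0.0675 without low-boron library 2, 0.378 without low-boron library 3, 0.228 without control library 3, 0.0543 without high-boron library 2. Of 5 xylem markers edgeR called 0, with 1 at an unadjusted p under 0.05, and their sums were 74 and 82.03 CPM at low boron, against 83.47 and 93.73 CPM in control. Of 4 meristem markers, STM (AT1G62360) was called (-0.70 ± 0.18), and the list summed to 21.09 and 21.95 CPM at low boron, against 27.44 and 32.05 CPM in control. STM had an adjusted p of 0.104 without low-boron library 3. Of the 4 mesophyll markers, RBCS1A (AT1G67090, -0.40 ± 0.08) and RCA (AT2G39730, -0.25 ± 0.09) fell and GLK2 (AT5G44190, 0.47 ± 0.09) rose, with sums of 11790 and 11990 CPM at low boron, against 14550 and 15840 CPM in control. RBCS1A had an adjusted p of 0.0773 without low-boron library 2. The part of a shift in cell types in the falls of cuticle, expansin, aquaporin and photosynthesis genes was not tested.

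Ribosome footprints, sequenced as separate libraries, give a further reading of the same comparison. Of 17697 genes tested in footprints, 2650 were called (15%), 1425 higher (8.05%) and 1225 lower (6.92%) at low boron, from a common biological coefficient of variation of 14.9%, against 6.92% for mRNA. Of 3535 genes called higher in mRNA and tested in both assays, 3316 were also higher in footprints (93.8%) and 1276 were called. Of 2466 called lower, 2344 were lower (95.1%) and 990 were called. Over all 17306 genes tested in both, 75.5% had the same sign, with a Pearson correlation across genes of 0.79 that is a description only. The labels do not say whether the paired assays used the same plants.

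Single genes differed in how the assays compared. NIP5;1 changed by 4.32 ± 0.22 in footprints beside 2.98 ± 0.11 in mRNA, and AT3G53400 and CPUORF47 (AT5G03190) by 5.15 ± 0.24 and 4.63 ± 0.26 beside 3.67 ± 0.09 and 3.01 ± 0.09. AIG1 lay the other way, at 3.38 ± 0.24 in footprints beside 4.53 ± 0.14 in mRNA. GER3 changed by -2.62 ± 0.23 in footprints (adjusted p = 3.09e-06) and JMJD5 by -2.17 ± 0.33 (adjusted p = 0.000413). UBQ10, called in mRNA, was not called in footprints (0.19 ± 0.24, adjusted p = 0.667), nor was MYB51 (0.33 ± 0.19, adjusted p = 0.277). No difference between the assays was tested here.

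**Figure D5:**
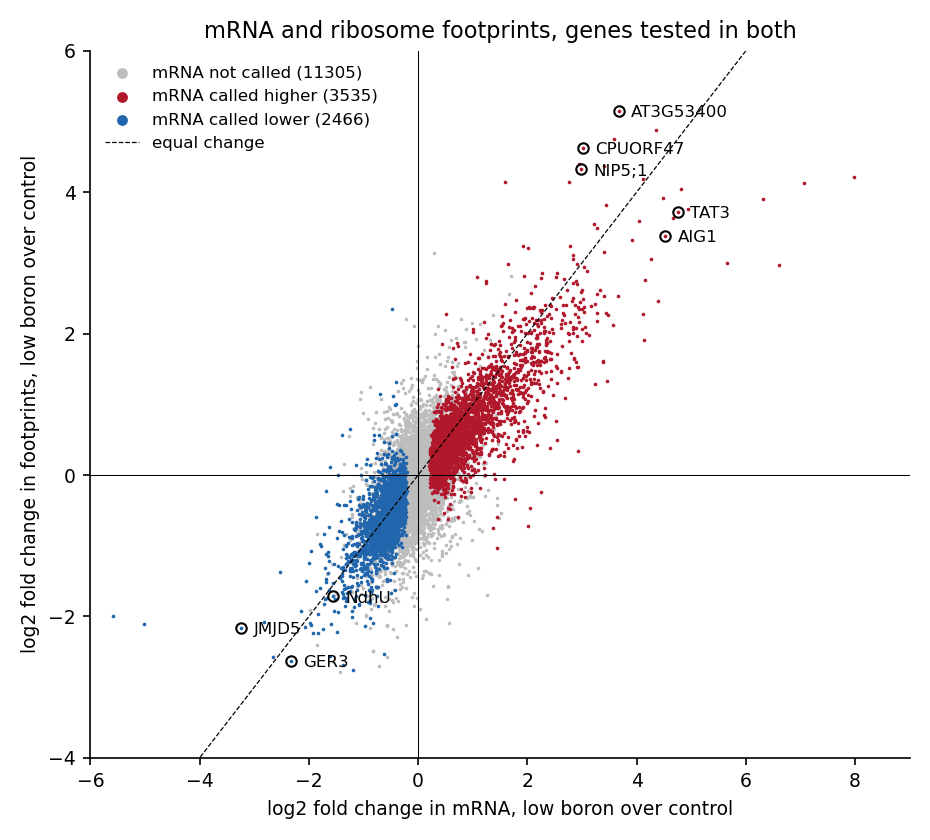
Log2 fold change in footprints (y axis) against that in mRNA (x axis) at low boron over control, 1 point per gene tested in both assays, coloured by the mRNA call, with a dashed line at equal change. Points called in mRNA lie mostly in the quadrants of equal sign (93.8% of the rises and 95.1% of the falls).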

How the data were processed

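The files hold counts per gene over coding sequences, made by the authors from RNA-seq and ribosome footprint reads and deposited without normalization. Bowtie2 and SAMtools were used, per the submitters' processing notes. Tool versions, the genome build and the treatment of multi-mapping reads are not given in the sources used here. Column numbers in the tables (2 and 3) differ from the numbers in the sample titles, so libraries are tied to groups only and are called here by table number.

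From the deposited counts, edgeR 4.0.16 (R 4.3.3) filtered genes with filterByExpr, scaled libraries by TMM and ran the quasi-likelihood test over all 6 RNA libraries, with Benjamini-Hochberg adjustment over 18403 genes and a threshold of 0.05. Values after ± are the SE of a log2 fold change (2 libraries a group). The method was run on simulated data with the same spread for every gene, a check that does not measure false calls in these data. Alternatives used DESeq2 1.42.0, limma 3.58.1 voom, other scaling and filters, and fits leaving out each library. Gene names came from the RefSeq table of TAIR10.1 (27445 of 27655 genes matched). List members whose RefSeq row lacked the symbol (12) were left out, and 14 pattern hits of other families removed. The members and lists were chosen with earlier results of these data known. Genes were named by rule: transport genes, the 15 largest well-measured rises and falls, the 8 largest changes in CPM each way, and up to 4 called members a list by size. Lists with fewer than 4 called members also gave their most abundant member not called. Other list members are named for their roles, chosen with their values seen. Promoter motifs and levels per length were not analysed here, so levels are compared within a gene only.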

Additional observations from a re-analysis of the deposited data

How the results depend on the processing

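Of 231 called genes picked by the naming rule, 175 were called the same way in every one of 14 alternatives, and 0 reversed. Called genes named only for their roles were not in this tally. DESeq2 called 3938 genes against 6120, and the strict filter, which tests only genes with a mean of 50 counts in every group, gave 524 genes changed at least 2-fold against 1250 and lowers list counts by its construction. Leaving out 1 library gave between 3731 and 6102 genes called, between 1090 and 1297 changed at least 2-fold, and between 5344 and 8531 called against high boron. In footprints the range was 922 to 2924, against 2650, with 1551 without low-boron library 2, 922 without low-boron library 3 and 1211 without control library 2. DESeq2 size factors shifted the median of all genes by -0.03. Of 11 genes picked by the naming rule and not called, 5 changed direction with 1 library left out, under 7 settings in all. BOR1 (AT2G47160) ranged from -0.057 to 0.15, BOR5 (AT1G74810) from -0.73 to 0.13 and LBD41 (AT3G02550) from -1.70 to 1.13. TT4 (AT5G13930) ranged from -0.027 to 0.48 and TIP2;2 (AT4G17340) from -0.10 to 0.066. Uncalled genes named for their roles, such as PR1 and CYCB1;1, were not in this tally. The cause of these changes was not tested. With the replicate block, 6156 genes were called in mRNA, 7828 against high boron and 3208 in footprints. Deviations of same-numbered libraries correlated at 0.0258 (low boron and control), -0.0198 (low and high boron) and 0.0599 (control and high boron) in mRNA, and at 0.156, 0.0931 and -0.0109 in footprints, so the numbers were not taken to pair the samples. With 2 libraries a group, calls were fewest among weakly expressed genes: 14.3% of genes at a mean log2 CPM of at most 1 were called, against 56.3% of those over 7.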

Other observations

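Of genes with at least 10 counts in each low-boron library, 3 were listed at 0 counts in both control libraries. AT3G28600 had 23 and 39 counts at low boron, at least 21.3-fold higher when control is set to a floor of 3 counts over the group. BGLU31 (AT5G24540), a beta-glucosidase gene, had 14 and 19 counts at low boron (at least 11.3-fold higher), and AT5G12340 had 13 and 11 counts (at least 8.2-fold higher). The bounds cover counting error only.

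Runs of at least 4 neighbouring tested genes, all called at least 2-fold higher at low boron by the edgeR test, occurred at 7 places in the RefSeq gene order. In 2 of them all members were cysteine-rich receptor-like kinase genes, CRK36 to CRK39 on chromosome 4 (2.24, 4.04, 2.46 and 3.02 on the log2 scale) and CRK11 to CRK15 on the same chromosome (1.2, 1.07, 2.64, 1.73 and 1.64). Such copies are similar in sequence, so the split of reads among them is uncertain. Another run ended in WRKY38 (AT5G22570, 1.09) after AT5G22520 (2.84), AT5G22530 (3.38), AT5G22540 (2.34) and AT5G22545 (1.79). The nudix hydrolase genes NUDT5 and NUDT6 stood beside AT2G04495 and AT2G04515 (1.24, 2.94, 2.01 and 1.98).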
